A study of Mus musculus with 6 samples.

Results

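The antiviral effectors of the type I interferon response were examined in macrophages sorted from the mouse heart, with and without the lysosomal protease legumain (gene Lgmn). The list holds 40 genes, taken by name from the 34745 genes of the deposited count table. It covers interferon-stimulated sensors and effectors and leaves out the interferon-induced GTPase families GBP and IRG as well as the IRF and STAT factors. All 40 genes were found, each in a single row, and 38 had enough counts to be tested. Ifit3b and Ifi44 were too low for the test.

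The groups compared were Lgmn KO, macrophages of LGMN-KO mice (replicates 1, 2 and 4), and WT, macrophages of mice with the gene intact (replicates 1, 2 and 3). All mice were C57BL/6 and 8 weeks old, and the series places all samples after myocardial infarction, although the labels mention both ligation of the left anterior descending artery and a sham operation without saying which each animal had. Neither the removed part of Lgmn nor the time after surgery is stated in the labels. The sort used a stain for CD45, CD64 and CD11b, which mark leukocytes, macrophages and myeloid cells. Whether libraries stand for different animals is not said in the labels, so a p-value here reflects how far libraries differ, which may be technical.

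Type I interferons are secreted proteins that bind the receptor IFNAR on almost every cell. The receptor's kinases activate transcription factors that, together with IRF9, bind the interferon-stimulated response element (ISRE) in the promoters of many genes. Their products sense viral nucleic acid, stop translation, degrade RNA or block viral entry. In the infarcted heart, macrophages that take up DNA of dying cells are known to start this response through IRF3.

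Library totals lay between 19546253 and 24086976 counts, and 12546 genes were tested with edgeR's quasi-likelihood test, with p-values adjusted by Benjamini-Hochberg over all of them. Levels are CPM, counts per 1000000 scaled with TMM factors, and a log2 fold change below 0 means lower in Lgmn KO. Lgmn itself was at 78.7 to 88.5 CPM in the Lgmn KO libraries, against 2200 to 2690 CPM in WT, as their labels say. Markers of the sorted cells were present, the macrophage gene Cd68 averaging 3600 CPM in Lgmn KO against 3170 in WT. Of the 11 rows of macrophage and gate markers 8 had a log2 fold change below 0, among them Csf1r at -0.74, Adgre1 at -0.51, Cd14 at -0.99 and Cx3cr1 at -1.83. At an unadjusted p of 0.05, 7 were lower, against 10.6% of all tested genes, with 0 called by edgeR. Fcgr1, which encodes the CD64 used in the sort, was at 78.2, 85.8 and 123 CPM in Lgmn KO and at 114, 311 and 185 CPM in WT. Of the markers of resident cardiac macrophages, Lyve1 was at 0 in every library, and Timd4 and Cd163 reached at most 0.648 and 0.37 CPM, both in WT replicate 2. Others were present in every library, with Mrc1 at 118 to 281 CPM, Folr2 at 16.4 to 25.6 CPM and Gas6 at 24.7 to 47.4 CPM. Gas6 was called lower in Lgmn KO (log2 fold change -0.75, adjusted p = 0.0297, edgeR). Vsig4 was higher in every Lgmn KO library but was not called (log2 fold change 1.61, adjusted p = 0.0841, edgeR).

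Most antiviral effectors were lower in the Lgmn KO libraries, by amounts that differed widely between genes, and no single one passed the adjusted test. Of the 38 tested, 34 had a log2 fold change below 0, against 50.4% of all tested genes. The median was -0.55, against 0.00 for all tested genes, with a range from -3.38 for Ifit2 to 0.29 for Trim25. edgeR called 0 members lower and 0 higher at an adjusted p of 0.05, where it called 0.478% of all genes lower and 0.311% higher. At an unadjusted p of 0.05, 21 members were lower and 1 was higher, against 10.6% and 6.9% of all genes. The groups did not overlap for 14 members that were lower and 1 that was higher in Lgmn KO, against 13% and 10.7% of all genes. DESeq2's Wald test called 11 members lower and 0 higher, where it called 3.59% and 1.98% of all genes. The authors' deposited table lists 13 members lower and 0 higher at a q-value below 0.05, against 2.8% and 1.01% of its genes, and these include all 11 of the DESeq2 calls. In bulk samples, fewer cells that express a gene and less RNA per cell cannot be told apart.

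**Figure D1:**
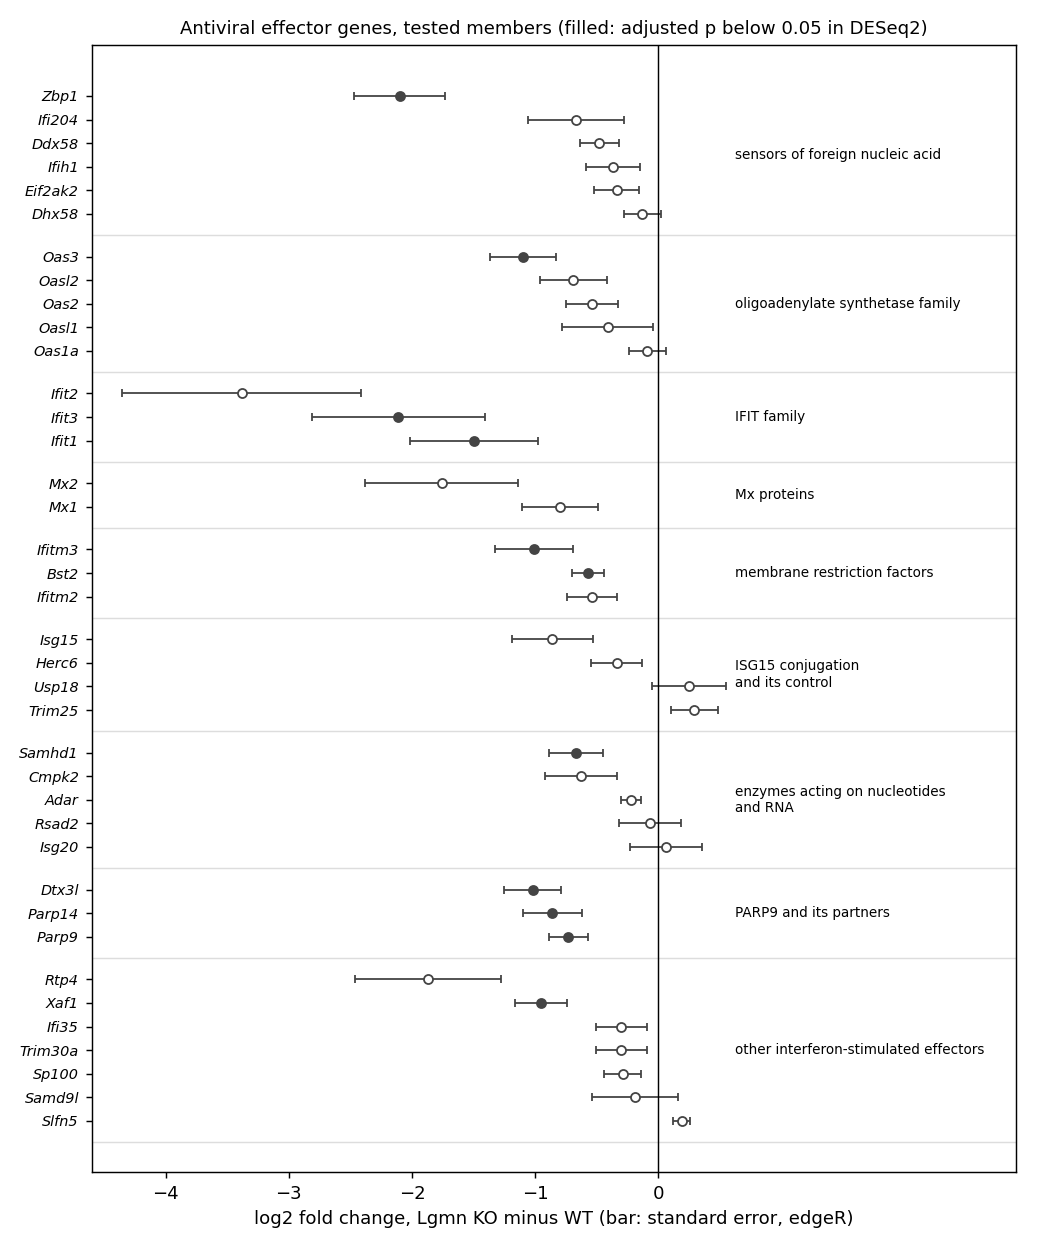
Fitted log2 fold change of Lgmn KO minus WT for the 38 tested members, grouped by role; points are edgeR estimates, bars their standard errors, and filled points have an adjusted p below 0.05 in DESeq2. Values run from -3.38 for Ifit2 to 0.29 for Trim25, and 34 of 38 lie left of 0.

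The difference was not spread evenly over the libraries. Of the 38 tested members, 31 were highest in WT replicate 2, against 23.4% of all tested genes, and 22 were lowest in Lgmn KO replicate 1, against 18.5%. WT replicate 1 was the lowest WT library for 32 of the 38 members, against 37.3% of all tested genes. It lay within or below the Lgmn KO range for 23 of the 38, which is 60.5%, against 69.0% of all tested genes. WT replicates 2 and 3 were both above every Lgmn KO library for 30 members, or 78.9%, against 20.8% of all genes. On the log2 scale the median member was at -0.68, -0.47 and -0.39 in Lgmn KO replicates 1, 2 and 4, relative to its WT mean. In WT replicates 1, 2 and 3 the same median was -0.45, 0.39 and 0.02, so WT replicate 1 resembled the Lgmn KO libraries in this measure. Without WT replicate 2 the median log2 fold change was -0.33 and 0 members were called. Without WT replicate 1 it was -0.72, and 13 members were called lower and 1 higher, where 4.99% of all genes then tested were called.

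**Figure D2:**
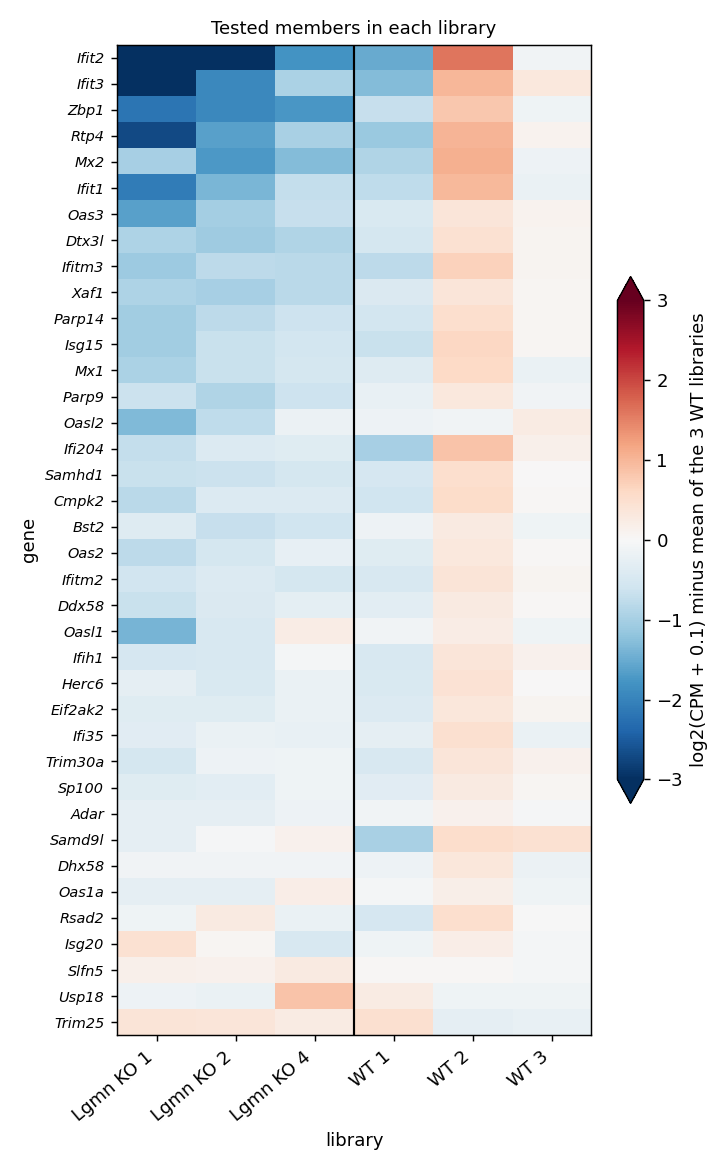
Level of each tested member (rows, ordered by fitted fold change) in each library (columns), as log2(CPM + 0.1) minus the mean of the 3 WT libraries; colours end at -3 and 3. The WT 2 column is the highest in 31 of 38 rows, and WT 1 is close to the Lgmn KO columns in many rows.

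Promoter sequences were searched on both strands for the core letters of the ISRE, which are GAAA, any NN pair and then GAAA. RefSeq windows (GRCm38.p6, 250 bases before to 50 after each gene start) were found for 30 members. Of these, 15 (50.0%) held at least 1 core, against 3.99% of all 27025 genes with a window. The core of the gamma-activated sequence, TTCNNNGAA, an element of genes that respond to interferon gamma, was present in 9 of the 30 members (30.0%) and in 9.55% of all genes. The stretches below are shown because they belong to members with large and with small differences between the groups. Capitals mark the ISRE core, or cores that overlap or follow each other, read in the direction of the gene:
Isg15, chr4:156200850-156200909, minus strand: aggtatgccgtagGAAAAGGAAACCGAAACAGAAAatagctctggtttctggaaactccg
Ifit1, chr19:34640779-34640838, plus strand: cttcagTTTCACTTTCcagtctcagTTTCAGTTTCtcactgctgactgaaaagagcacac
Ifit3, chr19:34583382-34583441, plus strand: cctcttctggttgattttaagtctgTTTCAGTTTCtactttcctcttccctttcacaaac
Ifit3b, chr19:34607778-34607837, plus strand: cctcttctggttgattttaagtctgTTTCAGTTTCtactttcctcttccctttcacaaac
Oas3, chr5:120777700-120777759, minus strand: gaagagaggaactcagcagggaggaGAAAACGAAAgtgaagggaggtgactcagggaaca
Bst2, chr8:71537562-71537621, minus strand: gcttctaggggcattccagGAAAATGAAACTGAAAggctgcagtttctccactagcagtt
Rsad2, chr12:26456538-26456597, minus strand: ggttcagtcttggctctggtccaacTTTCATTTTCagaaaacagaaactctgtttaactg
Slfn5, chr11:82951922-82951981, plus strand: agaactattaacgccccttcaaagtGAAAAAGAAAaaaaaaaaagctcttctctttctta

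Isg15 held 3 cores in a row, and the core nearest the gene start ended 56 bases before it. The stretches of Ifit3 and Ifit3b were the same in all 60 bases. The 14 tested members with a core had a median log2 fold change of -0.51, from -2.11 for Ifit3 to 0.19 for Slfn5. For the 14 tested members whose window held none the median was -0.38, from -3.38 for Ifit2 to 0.29 for Trim25. A match is a match of letters only, and a window without one says nothing about sites elsewhere. Zbp1, Rtp4, Parp9, Parp14, Mx1, Mx2, Usp18, Dhx58, Oas2 and Ifi204 had no window in the table used.

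Among the sensors of foreign nucleic acid, Zbp1 stood out. It encodes a receptor for Z-form RNA and DNA that can start necroptosis and lies on chromosome 2 from 173206612 to 173218923 (positions as in the deposited table, GRCm38). It was at 5.38, 6.44 and 7.31 CPM in Lgmn KO and at 15.4, 43.8 and 22.9 CPM in WT. The lowest WT library was thus above the highest Lgmn KO library. The log2 fold change was -2.10 with a standard error of 0.37 (adjusted p = 0.0555, edgeR), the smallest adjusted p of all members. DESeq2 gave an adjusted p of 8.02e-08. Over all alternatives the log2 fold change lay between -2.38 and -1.59, and adjusted p values between 8.02e-08 and 0.182.

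The RNA helicase sensors differed less. Ddx58, which encodes RIG-I, was at 20.2, 23.8 and 26.4 CPM in Lgmn KO and at 26.1, 39.0 and 33.1 CPM in WT. WT replicate 1 lay just below the highest Lgmn KO library, and the log2 fold change was -0.48 with a standard error of 0.16 (adjusted p = 0.195, edgeR). Ifih1, which encodes MDA5, had a log2 fold change of -0.37 and Dhx58, which encodes their regulator LGP2, one of -0.13. Eif2ak2, the gene of the translation-stopping kinase PKR, had one of -0.34 (adjusted p = 0.374, edgeR). Ifi204, a member of the PYHIN family that binds DNA, was at 62.8, 76.7 and 79.7 CPM in Lgmn KO and at 51.1, 184 and 114 CPM in WT. WT replicate 1 was the lowest library for Ifi204 and WT replicate 2 the highest. Its transcript is 96.9% identical to that of Ifi211 over 1363 bases, so reads of the pair may not be told apart.

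The oligoadenylate synthetases make a second messenger that activates the RNA-degrading enzyme RNase L. Oas3 differed most, with 28.1, 42.8 and 54.0 CPM in Lgmn KO against 63.1, 112 and 92.8 CPM in WT. No WT library reached down to the Lgmn KO range. The log2 fold change was -1.10 with a standard error of 0.27 (adjusted p = 0.103, edgeR, and 0.000936 in DESeq2).

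Oasl2, which encodes a synthetase-like protein with ubiquitin-like repeats, was at 17.8, 26.3 and 39.5 CPM in Lgmn KO and at 39.9, 41.6 and 53.0 CPM in WT. The groups met almost exactly, between Lgmn KO replicate 4 and WT replicate 1, and the log2 fold change was -0.69 (adjusted p = 0.247, edgeR). Oas2 had a log2 fold change of -0.54 and Oasl1 of -0.41. Oas1a, a synthetase with a single catalytic unit, was at 39.2, 38.9 and 54.2 CPM in Lgmn KO and at 45.3, 52.9 and 43.1 CPM in WT, with a log2 fold change of -0.09. The groups overlapped throughout for Oas1a. Its transcript is 97.5% identical to that of Oas1g over 1860 bases, and Oas1g had a log2 fold change of -0.22. Neighbours on chromosome 5 thus had unlike values, with Oas3 (120753098 to 120777661) at -1.10 and Oas1a (120896256 to 120907521) at -0.09. That difference between the genes was not tested.

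The IFIT proteins bind viral RNA that lacks host cap marks and hold it back from ribosomes. Their genes lie side by side on chromosome 19, and Ifit2 and Ifit3 had the most negative log2 fold changes of the list. Ifit2 was at 0.247, 1.48 and 3.91 CPM in Lgmn KO, from 5, 29 and 83 counts. In WT it was at 4.77, 41.9 and 12.8 CPM, from 98, 906 and 307 counts. The lowest WT library was above the highest Lgmn KO library, and libraries of the same group differed by several fold. The log2 fold change was -3.38 with a standard error of 0.97 (adjusted p = 0.141, edgeR, and 0.0797 in DESeq2). Without WT replicate 2 it was -2.22, and without Lgmn KO replicate 4 it was -4.52.

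Ifit3 was at 0.444, 1.28 and 2.64 CPM in Lgmn KO and at 2.04, 10.4 and 6.46 CPM in WT. Here WT replicate 1 fell below Lgmn KO replicate 4, and the log2 fold change was -2.11 with a standard error of 0.70 (adjusted p = 0.185, edgeR). Without Lgmn KO replicate 4 it was -2.87. Ifit1 had a log2 fold change of -1.50 (standard error 0.52), and of -0.85 without WT replicate 2. The near-identical Ifit3b had 4, 0 and 7 counts in the Lgmn KO libraries, against 8, 17 and 9 in WT, too few to be tested. The transcripts of Ifit3 and Ifit3b are 97.8% identical over 1700 bases. Summed, the copies were at 0.64, 1.28 and 2.97 CPM in Lgmn KO and at 2.43, 11.2 and 6.84 CPM in WT. The log2 fold change of the sum was -2.05, close to that of Ifit3 alone. The 4 IFIT genes together were at 2.12, 4.86 and 10.3 CPM in Lgmn KO against 10.5, 64.2 and 24.5 CPM in WT, so Lgmn KO replicate 4 and WT replicate 1 were nearly equal.

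Spread within the Lgmn KO group was itself a feature of a few members. Replicate 4 was at least 2-fold above replicate 1 for 7 of 38 members (Ifit1, Ifit2, Ifit3, Oasl1, Oasl2, Rtp4 and Usp18), or 18.4%, against 4.32% of all tested genes. Within WT, replicate 2 was at least 2-fold above the mean of replicates 1 and 3 for 7 members (Ifi204, Ifit1, Ifit2, Ifit3, Mx2, Rtp4 and Zbp1), against 2.28% of all tested genes.

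**Figure D3:**
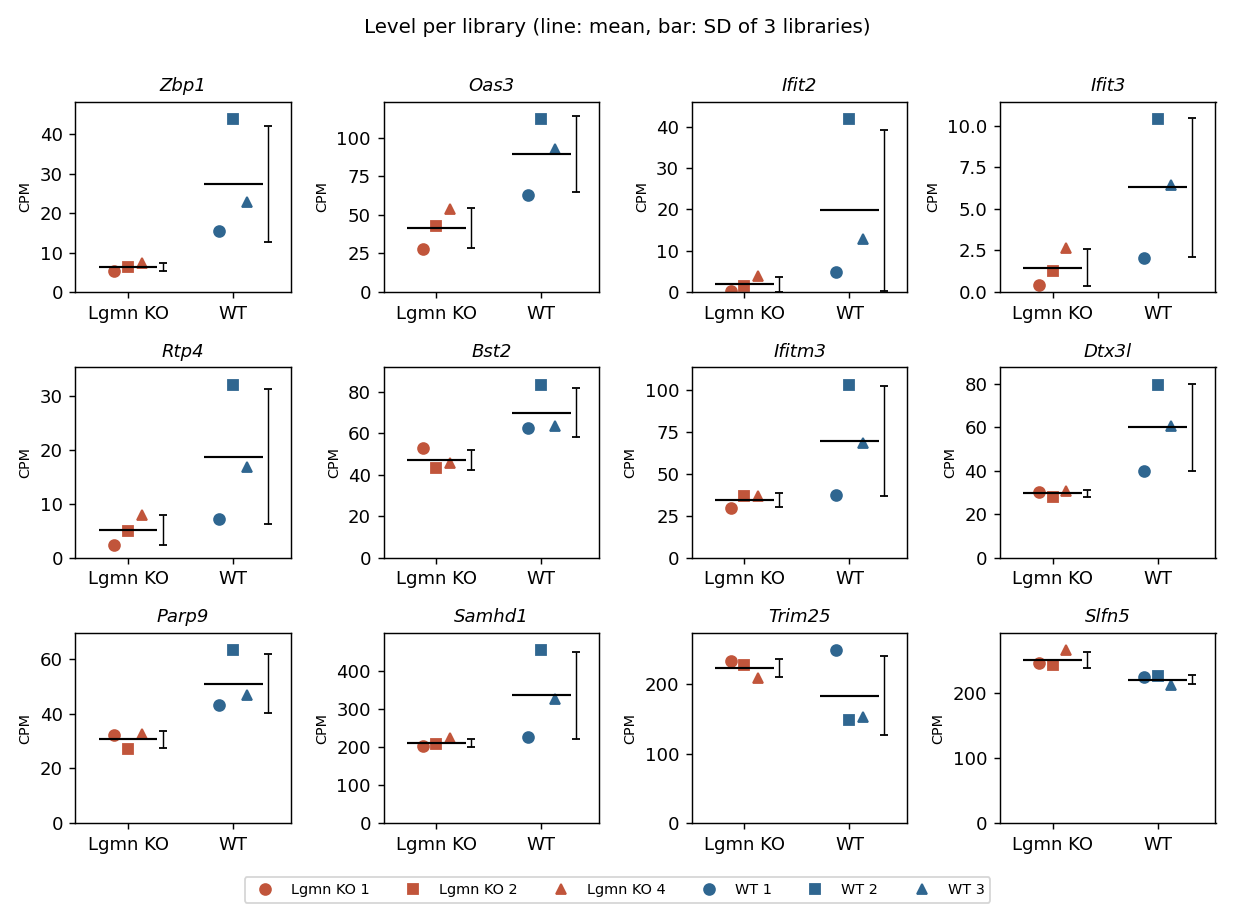
CPM of 12 members in each library, with each axis starting at 0; lines are means and bars the SD of 3 libraries. Zbp1, Oas3, Ifit2, Bst2, Ifitm3, Dtx3l, Parp9 and Samhd1 have no WT library within the Lgmn KO range, whereas Trim25 is highest in WT 1.

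The Mx genes encode dynamin-like GTPases that trap viral components. C57BL/6 mice carry a defective Mx1 allele, so this gene reports the response rather than a working protein. Mx2 is listed as a polymorphic pseudogene in the annotation GENCODE M21. The transcripts of Mx1 and Mx2 are 94.8% identical over 920 bases, so some reads of the pair may not be told apart. Mx1 was at 1.88, 2.30 and 2.55 CPM in Lgmn KO and at 2.82, 5.69 and 3.21 CPM in WT, with a log2 fold change of -0.80 (adjusted p = 0.244, edgeR). Mx2 was at 0.493, 0.256 and 0.377 CPM in Lgmn KO and at 0.535, 2.36 and 0.959 CPM in WT, with a log2 fold change of -1.76 (adjusted p = 0.206, edgeR). The groups did not overlap for either gene, but WT replicate 1 was close to Lgmn KO replicate 1 for Mx2. At 5 to 51 counts per library, Mx2 was measured with low precision, and without WT replicate 2 its log2 fold change was -0.99.

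Membrane restriction factors had the highest levels of the list per gene length. In FPKM, Ifitm2 stood at 264 ± 74.9 and Ifitm3 at 102 ± 47.5 in WT, followed by Bst2 at 91.7 ± 14.9 (SD, n = 3 libraries). At the other end Ifi44 was at 0.0504 ± 0.0315 FPKM in WT. It had 1, 0 and 3 counts in the Lgmn KO libraries, against 4, 14 and 7 in WT. The means of Ifitm3 and Bst2 differed by less than the SD between libraries.

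Bst2, which encodes tetherin, a protein that holds budding virus at the cell surface, was at 52.6, 43.0 and 45.4 CPM in Lgmn KO and at 62.7, 83.3 and 63.4 CPM in WT. All WT libraries were higher, and the log2 fold change was -0.57 with a standard error of 0.13 (adjusted p = 0.0916, edgeR, and 0.00654 in DESeq2). Ifitm3, which blocks fusion of viruses in endosomes, was at 29.8, 37.0 and 36.5 CPM in Lgmn KO and at 37.2, 103 and 68.1 CPM in WT. WT replicate 1 lay only just above Lgmn KO replicate 2. The log2 fold change was -1.01 with a standard error of 0.32 (adjusted p = 0.17, edgeR), and -0.61 without WT replicate 2. Its neighbour Ifitm2 had a log2 fold change of -0.54, with WT replicate 1 within the Lgmn KO range.

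ISG15 is a ubiquitin-like protein that is joined to other proteins, and the genes of its conjugation had values on both sides of 0. Isg15 itself was at 2.42, 3.17 and 3.44 CPM in Lgmn KO and at 3.16, 7.87 and 5.34 CPM in WT. WT replicate 1 lay below 2 of the Lgmn KO libraries, and the log2 fold change was -0.86 with a standard error of 0.33 (adjusted p = 0.247, edgeR). Herc6, the ligase that joins ISG15 to its targets in the mouse, was at 20.0, 17.5 and 21 CPM in Lgmn KO and at 17.6, 32.4 and 24.3 CPM in WT. The groups overlapped for Herc6, with WT replicate 1 between Lgmn KO replicates 2 and 1, and the log2 fold change was -0.34 (adjusted p = 0.455, edgeR). Usp18, which removes ISG15 and also restrains IFNAR signalling, was at 7.80, 7.56 and 15.7 CPM in Lgmn KO and at 10.3, 7.92 and 7.88 CPM in WT. Only Lgmn KO replicate 4 was high for Usp18, and its log2 fold change of 0.25 turned to -0.18 without that library.

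Trim25, a ubiquitin ligase that assists RIG-I, had the highest log2 fold change of the list, 0.29 with a standard error of 0.19 (adjusted p = 0.499, edgeR). It was at 233, 227 and 209 CPM in Lgmn KO and at 248, 148 and 152 CPM in WT. WT replicate 1 was the highest library for Trim25 and WT replicates 2 and 3 the lowest pair, the reverse of the order seen for most members. Trim25 had a log2 fold change of 0.57 when WT replicate 1 was left out.

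The enzymes that act on nucleotides and RNA were split. Samhd1, which breaks down the nucleotides that viruses need, was at 202, 207 and 224 CPM in Lgmn KO and at 226, 454 and 327 CPM in WT. The groups were separated by a narrow gap, and the log2 fold change was -0.67 with a standard error of 0.22 (adjusted p = 0.183, edgeR, and 0.0327 in DESeq2). Adar, which edits double-stranded RNA, was at 78.5, 78.6 and 85.4 CPM in Lgmn KO and at 87.9, 103 and 92.4 CPM in WT. The libraries of each group were close together for Adar, and the log2 fold change was small, -0.22 with a standard error of 0.08 (adjusted p = 0.223, edgeR).

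Rsad2, which encodes viperin, a maker of a chain-terminating nucleotide, was at 27.6, 36.3 and 26.2 CPM in Lgmn KO and at 21.4, 43.0 and 30.2 CPM in WT. WT held both the lowest and the highest library, and the log2 fold change was -0.07 with a standard error of 0.25. Cmpk2, which supplies viperin's substrate, starts beside Rsad2 on chromosome 12 (26469204 to 26479835, against 26442753 to 26456452). It was at 4.05, 5.37 and 5.37 CPM in Lgmn KO and at 4.77, 10.7 and 7.38 CPM in WT, with a log2 fold change of -0.63 (adjusted p = 0.326, edgeR). Isg20, an RNA exonuclease, had a log2 fold change of 0.06.

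PARP9, PARP14 and DTX3L act together, DTX3L being a ubiquitin ligase bound to PARP9, and their genes lie next to each other on chromosome 16 between 35832874 and 35972605. All 3 had no overlap between the groups and all 3 were called lower by DESeq2, against 13% and 3.59% of all genes. Dtx3l was at 30.4, 27.7 and 30.7 CPM in Lgmn KO and at 39.8, 79.6 and 60.6 CPM in WT, a log2 fold change of -1.02 (standard error 0.23, adjusted p = 0.0842, edgeR). Parp9 was at 32.3, 26.9 and 32.5 CPM in Lgmn KO and at 43.0, 63.0 and 46.6 CPM in WT, a log2 fold change of -0.73 (standard error 0.16, adjusted p = 0.0789, edgeR). For both genes the Lgmn KO libraries were close together and the WT libraries spread upward. Parp14 was at -0.86 on the log2 fold scale (adjusted p = 0.139, edgeR). Exons of Parp9 and Dtx3l overlap on opposite strands, and no source used here states the strand setting of the counting, so some reads of the pair cannot be told apart.

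Among the remaining effectors Xaf1 and Rtp4 had the smallest p. Xaf1, whose product counters the apoptosis inhibitor XIAP, was at 6.07, 5.78 and 6.65 CPM in Lgmn KO and at 8.66, 15.0 and 12.2 CPM in WT. The groups were clearly apart, and the log2 fold change was -0.95 with a standard error of 0.21 (adjusted p = 0.083, edgeR, and 0.00369 in DESeq2). Rtp4, which encodes a chaperone of membrane receptors, was at 2.32, 5.01 and 7.97 CPM in Lgmn KO and at 7.20, 32.0 and 16.8 CPM in WT. WT replicate 1 lay below Lgmn KO replicate 4, and the log2 fold change was -1.87 with a standard error of 0.59 (adjusted p = 0.166, edgeR), and -1.23 without WT replicate 2.

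Slfn5, one of the Schlafen genes, was the single member whose Lgmn KO libraries were all higher. It was at 245, 242 and 265 CPM in Lgmn KO and at 224, 225 and 212 CPM in WT, a log2 fold change of 0.19 (standard error 0.07, adjusted p = 0.22, edgeR). Its exons overlap the antisense gene Slfn5os. Ifi35, Trim30a, Sp100 and Samd9l had log2 fold changes between -0.30 and -0.19 and overlapping groups. Samd9l had its lowest library in WT, with replicate 1 at 39.0 CPM, against 63.4, 75.3 and 83.7 CPM in Lgmn KO.

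Genes upstream of the effectors were taken by role. Of 21 interferon ligand genes, 19 had 0 counts in every library, which allows up to 0.125 to 0.153 CPM per library (3 counts, counting error only). Ifnab had 1 count in WT replicate 2. Ifng, the type II interferon made by T and NK cells, had 0 counts in all Lgmn KO libraries and 3, 16 and 6 counts in WT replicates 1, 2 and 3. Ifng was too low for the edgeR test, and DESeq2 gave it an adjusted p of 0.0387 at these few counts.

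The chains of the type I interferon receptor had log2 fold changes near -0.1. Ifnar1 was at 154, 152 and 158 CPM in Lgmn KO and at 161, 182 and 159 CPM in WT (log2 fold change -0.11, standard error 0.07), and Ifnar2 had a log2 fold change of -0.10. Jak1, the kinase on both interferon receptors, had one of -0.02. The chains of the interferon gamma receptor had opposite signs. Ifngr1 was at 75.8, 113 and 97.8 CPM in Lgmn KO and at 108, 156 and 139 CPM in WT, and its log2 fold change was -0.49 (adjusted p = 0.213, edgeR). Ifngr2 was at 0.22 on that scale (adjusted p = 0.148, edgeR). The receptors and kinases together were at 1190 to 1220 CPM in Lgmn KO and 1210 to 1310 CPM in WT.

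Among the signalling factors, Irf1 had its highest library in WT replicate 2, as most effectors did. Irf1, a factor induced most strongly by interferon gamma, was at 12.0, 13.1 and 18.6 CPM in Lgmn KO and at 37.8, 158 and 80.6 CPM in WT, a log2 fold change of -2.66 (standard error 0.49, adjusted p = 0.0575, edgeR). Irf5 was at -0.32 on the log2 fold scale (adjusted p = 0.0933, edgeR). Ptpn6, a phosphatase that limits the pathway, was at -0.41 and Irf3, which starts interferon production, at 0.04. Of 32 tested pathway genes edgeR called 0, and 26 were negative with a median of -0.23. At an unadjusted p of 0.05, 13 were lower and 1 was higher, against 10.6% and 6.9% of all genes. DESeq2 called 8 of these 32 lower, against 3.59% of all genes.

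The GTPases that interferon gamma induces were set beside the antiviral effectors, since the groups of genes respond to related signals. All 15 tested rows had a log2 fold change below 0, and their median was -3.58, against -0.55 for the effectors; that difference between the lists was not tested. edgeR called 0 of them lower, against 0.478% of all genes, and DESeq2 called 11 lower, against 3.59%. All 15 were lower at an unadjusted p of 0.05, against 10.6% of all genes. Tgtp2 was at 0.197, 0.0511 and 0.660 CPM in Lgmn KO and at 4.62, 63.1 and 18.5 CPM in WT, and Irgm2 had a log2 fold change of -1.88. Summed, the GTPases were at 85.0, 98.0 and 119 CPM in Lgmn KO against 159, 1120 and 397 CPM in WT. The 40 effectors summed to 1600, 1700 and 1830 CPM in Lgmn KO against 1760, 2830 and 2220 CPM in WT. For the effectors WT replicate 1 was inside the Lgmn KO range, and for the GTPases it was above it.

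**Figure D4:**
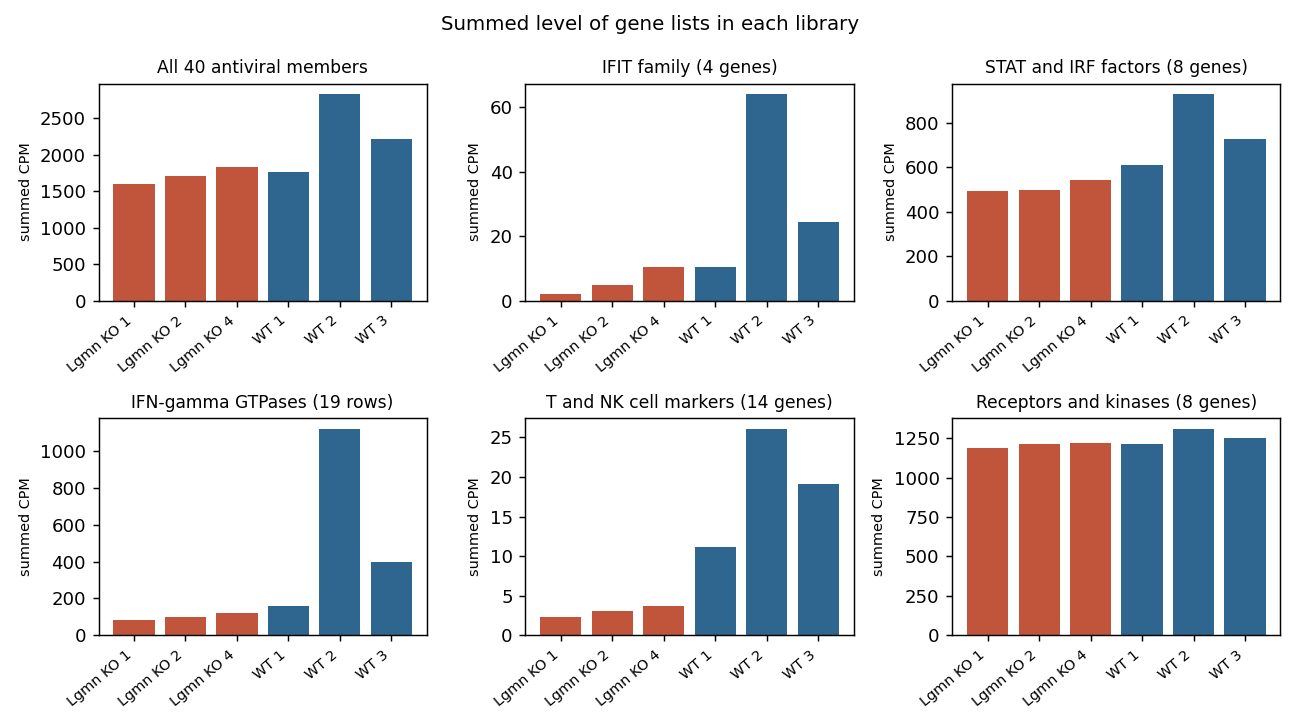
Summed CPM of 6 gene lists in each library, with bars starting at 0. WT 2 is the highest library in all 6 panels; WT 1 is at 1760 for the effectors, within the Lgmn KO range of 1600 to 1830, and at 159 for the GTPases, above their range of 85.0 to 119.

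Relatives of the members that are not on the list also mostly had negative log2 fold changes. Of 26 tested, 23 were negative, with a median of -0.41 and 0 called by edgeR. The groups did not overlap for 4 that were lower and 1 that was higher, against 13% and 10.7% of all genes. At an unadjusted p of 0.05, 9 were lower and 1 was higher, against 10.6% and 6.9% of all genes. DESeq2 called 2 lower and 1 higher, against 3.59% and 1.98% of all genes. Slfn1 was at 2.96, 3.02 and 3.77 CPM in Lgmn KO and at 5.99, 19.0 and 9.55 CPM in WT (log2 fold change -1.82, adjusted p = 0.0844, edgeR). Sp110 had a log2 fold change of -0.72. Slfn4 had the opposite sign, with 7.45, 12.6 and 21 CPM in the Lgmn KO libraries and 4.96, 6.02 and 7.76 CPM in those of WT. Its log2 fold change was 1.13 (adjusted p = 0.173, edgeR, and 0.0253 in DESeq2).

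Markers of other cells also differed between the libraries. Those of T and NK cells (14 genes, of which Ncr1 was at 0 in all libraries) summed to 2.37 to 3.72 CPM in Lgmn KO and to 11.2, 26.1 and 19.1 CPM in WT replicates 1, 2 and 3. Trac of that list was called lower (log2 fold change -3.8, adjusted p = 0.0465, edgeR). Conventional dendritic cell markers (8 genes, none at 0 in all libraries) summed to 3.26 to 5.19 CPM in Lgmn KO and to 5.40, 16.3 and 11.2 CPM in WT. Without Ccr7, the highest of them, the sums were 1.88, 2.96 and 2.03 CPM in Lgmn KO and 2.87, 7.92 and 5.96 CPM in WT. WT replicate 1 then lay within the Lgmn KO range. Zbtb46 of that list was called lower (log2 fold change -2.15, adjusted p = 0.041, edgeR). Of the 4 tested, 3 had a log2 fold change below 0, and Cd209a was at 0.68. Monocyte markers (10 genes, none at 0 in all libraries) summed to 565 to 671 CPM in Lgmn KO and to 548, 860 and 623 CPM in WT. Chil3, with a log2 fold change of 0.07, made up most of that sum. Without it the sums were 145, 145 and 181 CPM in Lgmn KO and 158, 331 and 239 CPM in WT. Of the 9 tested, 8 had a log2 fold change below 0, with a median of -1.02. For 5 of them the groups did not overlap, against 13% of all genes. Within that list Ccr2, the receptor of recruited monocytes, was at 6.42, 3.88 and 4.34 CPM in Lgmn KO and at 11.4, 67.2 and 35.6 CPM in WT. For these 3 lists WT replicate 2 was the highest library, as for most effectors, and their part in the effectors' difference was not tested. Of 8 plasmacytoid dendritic cell markers, a cell type that secretes much type I interferon, Siglech and Klk1 were at 0 in all libraries. That list summed to 76.0 to 84.4 CPM in Lgmn KO and to 95.3 to 122 CPM in WT, and it holds Bst2, without which the ranges were 31.1 to 39.0 and 32.6 to 41.6 CPM. Resident macrophage markers (8 genes, Lyve1 at 0) summed to 165 to 205 CPM in Lgmn KO, below the 213 to 352 CPM of WT. Without Mrc1, the highest of them, the ranges were 47.1 to 56.8 and 57.0 to 74.9 CPM. Vsig4 of that list went the other way, at 2.96, 5.06 and 4.71 CPM in Lgmn KO and 1.41, 1.94 and 0.834 CPM in WT. Its DESeq2 adjusted p was 0.00245. Fibroblast markers (8 genes) summed to 45.4 to 117 CPM in Lgmn KO, below the 132 to 181 CPM of WT. The part of these lists in the effectors' difference was not tested either. Endothelial markers (8 genes, Emcn and Tek at 0) summed to 24.1 to 42.0 CPM in Lgmn KO and 36.5 to 42.2 CPM in WT, ranges that overlapped through Kdr. Without Kdr they summed to 2.12 to 2.62 CPM in Lgmn KO, below the 8.84 to 12.2 CPM of WT. Flt1 made up most of that WT sum, at 11.1, 7.41 and 6.38 CPM, against 1.43, 0.92 and 1.23 CPM in Lgmn KO. Flt1 was called lower (log2 fold change -2.79, adjusted p = 0.015, edgeR). Pecam1 was also lower in Lgmn KO without overlap. Tie1 was higher without overlap, at 0.296, 0.409 and 0.283 CPM against at most 0.125 CPM in WT. The part of the endothelial markers in the effectors' difference was also not tested. Ranges overlapped between the groups for markers of neutrophils (196 to 227 CPM in Lgmn KO, 166 to 197 in WT), B cells (2.20 to 2.88 and 2.14 to 6.01), cardiomyocytes (3.45 to 4.80 and 3.71 to 5.00) and the macrophage gate (20400 to 23700 and 21600 to 23600).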

How the data were processed

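Per the file headers, the deposited table holds a read count and an FPKM value per gene for each of 6 libraries, and the authors' log2 fold change, p-value and q-value. The deposited counts were whole, with a different total in each library, and were taken as raw. HISAT2, TopHat, TopHat2 2.0.9 and the build hg38 are named in the submitters' processing notes, with no roles. No source used here names the program that counted reads, its use of strand or the authors' test. Gene IDs are of mouse, and 80.8% of those in GENCODE M21 (GRCm38) have the same position there, including 34 of the 40 members. The deposited FPKM values were used only to compare levels between genes.

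Genes kept by filterByExpr were tested with edgeR 4.0.16 (glmQLFit, glmQLFTest, TMM factors) in R 4.3.3, with no covariate. Alternatives were DESeq2 1.42.0, voom in limma 3.58.1, other scaling factors, other filters on low counts, an adjusted p of 0.1, a replicate block and leaving out each library. The edgeR test was also run on simulated data for the comparison of Lgmn KO with WT (12396 genes). It found 73.7% of the 99 genes set to differ 2-fold and 95.8% of the 96 set to differ 4-fold. It also called 10 genes that were set not to differ. Counts were drawn separately for each gene, without the library shifts shared by many members, so these shares may not hold for the members. Transcripts were compared with blastn 2.17.0. Libraries of one group differed from each other beyond counting noise (chi-square per degree of freedom 14.0 to 42.7). Each was treated as 1 replicate, although this check cannot tell different animals from separate preparations of the same cells.

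The members and all lists were chosen with earlier results of these data known. Any member may be named; values in every library are given for the 2 of smallest p in each role group and the members of lowest and highest log2 fold change, and for some others chosen after their values were seen. Other kinds of list gave the 3 genes with the smallest p and 2 by highest mean level, with some added by role. The 10 macrophage marker names cover 11 rows and 18 GTPase names 19 rows. Results on a gene that this rule names are not reported here.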

Additional observations from a re-analysis of the deposited data

How the results depend on the processing

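The count of members called lower, 0 with edgeR, was 1 with upper-quartile factors and 1 with library totals alone (Zbp1 each time), 11 with DESeq2, 4 with no filter on low counts, 5 at an adjusted p of 0.1 and 2 with the replicate block (Ifit2 and Oas3). Of all genes tested, 0.789% were called in either direction with edgeR, 1.08% with upper-quartile factors, 1.32% with library totals alone, 1.72% with no filter and 0.311% with the replicate block. DESeq2 called 3.59% of its genes lower and 1.98% higher. Without WT replicate 1, 4.99% were called in either direction. The share of all genes at an adjusted p of 0.1 was not counted, so the counts at that level have no such comparison. In the block fit, replicates 1 and 2 alone set the fold change, as replicates 3 and 4 each occur in 1 group. Its 2 calls rest on those libraries too. With the block the log2 fold changes of Ifit2, Ifit3 and Oasl1 were -4.68, -2.71 and -1.01. The count of members called lower stayed 0 with RLE factors, limma-voom and a mean of at least 1 CPM. Leaving out 1 library gave 0 to 13 members lower and 0 to 1 higher, the 13 and the 1 without WT replicate 1. Pathway genes called, 0 with edgeR, were 1 with library totals alone, 9 with DESeq2 (of 35 then tested), 3 with no filter, 4 at an adjusted p of 0.1 and 0 to 8 when 1 library was left out, the 8 without WT replicate 1. The median log2 fold change of the members lay between -0.72 and -0.33 over all alternatives. Values near 0 changed sign for 5 members. With the replicate block Samd9l was at 0.07, Rsad2 at 0.06 and Usp18 at -0.24. When 1 library was left out, Samd9l ranged from -0.53 to 0.04, Rsad2 from -0.28 to 0.22, Isg20 from -0.20 to 0.27, Dhx58 from -0.23 to 0.05 and Usp18 from -0.18 to 0.44. The causes were not tested. Only replicates 1 and 2 share a number between the groups. Their deviations correlated at 0.122 and 0.076, which does not show a pairing.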
